A study of Mus musculus with 42 samples.

Results

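Histone H3 acetylated on lysine 27 (H3K27ac), which marks promoters and enhancers in use, was compared between Nur77-KO and WT bone marrow-derived macrophages (BMDMs) after 1 h of lipopolysaccharide (LPS). The comparison rests on 6 of the 42 libraries of the series, 3 per genotype, and on 6 of its 18 H3K27ac libraries. BMDMs were grown for 7 days in L929-conditioned medium from bone marrow of male mice aged 6 to 12 weeks, with strain C57Bl6/J in the labels of both genotypes, and all 6 cultures received 100 ng/ml LPS for 1 h. Nur77-KO mice carry a whole-body deletion of Nr4a1, made by crossing a floxed allele to a Cre line driven by the human cytomegalovirus promoter and then breeding the Cre out, and WT mice were littermates, although the genotype label of the KO samples reads only "cre". The study's methods call the ChIP-seq replicates biological, and the labels do not say whether they came from separate mice or cultures, so p-values measure the spread between these libraries. The regions of the 6 libraries were merged where they overlapped, which gave 54799 regions. Of these, 43468 were found in at least 2 of the 3 libraries of a genotype and were tested.

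Macrophages sense LPS, a component of the outer membrane of Gram-negative bacteria, through Toll-like receptor 4. NF-kB and AP-1 factors such as Fos and Jun are activated first, and interferon made by the cells then switches on a later wave of genes. Acetyl groups are placed on H3K27 at enhancers and promoters as these genes switch on and are removed again by deacetylases. Nur77, encoded by Nr4a1, is an orphan nuclear receptor that LPS itself induces in macrophages, and as a monomer it binds a DNA element called NBRE.

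Each deposited region carries a normalized tag count, the number of sequenced tags inside it scaled to 10 M tags per library. These counts are called tags here, and changes are differences of log2(tags + 10), KO minus WT, so that they understate the change of weak regions. A value of 0 means that no region was found in that library, not that no read fell there, and no fold is given against such a group. In bulk samples, fewer cells with a mark and less mark per cell cannot be told apart.

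The KO libraries were not alike. Across the 23279 regions found in all 18 H3K27ac libraries, log2 tags of KO library 1 correlated at r = 0.979 to 0.981 with the WT libraries of 1 h, whereas KO libraries 2 and 3 correlated at 0.887 to 0.896 with WT. The correlation between KO libraries 2 and 3 was 0.996 and those with KO library 1 were 0.904 and 0.908, and the 3 WT libraries correlated with each other at 0.988 to 0.991. With unstimulated (0 h) libraries of either genotype, KO libraries 2 and 3 correlated at 0.875 to 0.881, against 0.808 to 0.822 for KO library 1. These correlations are across regions, which are not independent and share the library's depth. Library 1 of the KO group at 18 h of LPS also stood apart from its own group, at 0.915 and 0.913 with the other two against 0.884 and 0.886 with KO libraries 2 and 3 of 1 h. The RNA polymerase II (Pol II) libraries of the KO group at 1 h did not split in this way and correlated with each other at 0.985 over 21314 regions. The results below therefore separate regions at which all 3 KO libraries departed from WT from regions at which only libraries 2 and 3 did.

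Sequencing depth differed between genotypes, at 23.8 M, 23.6 M and 47.5 M tags in KO libraries 1 to 3 and 13.5 M, 14.0 M and 20.9 M in WT. The lowest normalized tag count that a 500 bp window needed was accordingly 5.88, 6.37 and 5.05 in KO and 8.14, 7.84 and 6.71 in WT, so that weaker regions could be found in KO. KO libraries held 45600, 42002 and 45061 regions and WT libraries 41045, 41698 and 42397, a mean difference of 2508 (exact two-sided permutation test, p = 0.2). Regions took up 84.4, 84.6 and 84.4% of the tags of the KO libraries and 79.96, 80.2 and 82.1% of those of the WT libraries, 3.71 percentage points higher (exact two-sided permutation test, p = 0.1, the smallest that 3 against 3 libraries allow). All 13 macrophage markers carried H3K27ac within 2500 bp of their start, among them Csf1r, Spi1 and Adgre1, with summed tags of 8205, 9199 and 8165 in KO and 7669, 7706 and 8150 in WT, and none was called. All 6 T cell markers and all 4 mast cell and basophil markers were listed at 0 in all 6 libraries, as were 5 of 6 B cell markers, 5 of 6 fibroblast markers, 4 of 6 dendritic cell markers and 4 of 8 neutrophil markers. The summed tags of the remaining dendritic cell markers were 602, 348 and 387 in KO and 503, 557 and 574 in WT, and those of the remaining neutrophil markers 151, 132 and 169 in KO and 84.4, 89.2 and 93.9 in WT. The remaining B cell marker had 114, 207 and 272 tags in KO and 109, 106 and 116 in WT, and the remaining fibroblast marker 64.1, 11.2 and 16.97 in KO and 42.0, 62.6 and 48.6 in WT, so that KO libraries 2 and 3 lay above WT at the former and below it at the latter. Their part in the results was not tested.

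Few regions were called between the genotypes when all 3 KO libraries entered the test. With limma across all tested regions, 321 were called at an adjusted p under 0.05 with a change of more than 1 on the log2 scale, 0.738% of those tested, of which 164 were higher in KO (0.377%) and 157 lower (0.361%). Another measure of how much moved is the 13278 regions at an unadjusted p under 0.05. Of the 321 called regions, 101 were found in no WT library and 66 in no KO library. The median change of all tested regions was 0.16, and centring each library on its median gave 290 called regions, 110 higher and 180 lower, so that the balance of directions depended on the scaling.

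The count of called regions turned on which libraries entered. Without KO library 1, 11882 regions were called, 7870 higher and 4012 lower. Without KO library 2 or 3 the number was 28 or 27, with 7 or 6 higher, and without WT library 1, 2 or 3 it was 18, 17 or 16, with 4, 3 or 2 higher.

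The change of each KO library was then taken on its own against the mean of the 3 WT libraries. A KO library was called apart at a region where its change exceeded 1 and lay outside the range of the WT libraries, and near where the change was under 0.5. KO library 1 was apart at 1481 regions above WT and 611 below. KO library 2 was apart at 7817 above and 4754 below, and KO library 3 at 8834 above and 3683 below. The standard deviation of the change over regions was 0.47 in KO library 1, 0.99 in KO library 2 and 0.96 in KO library 3.

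**Figure D1:**
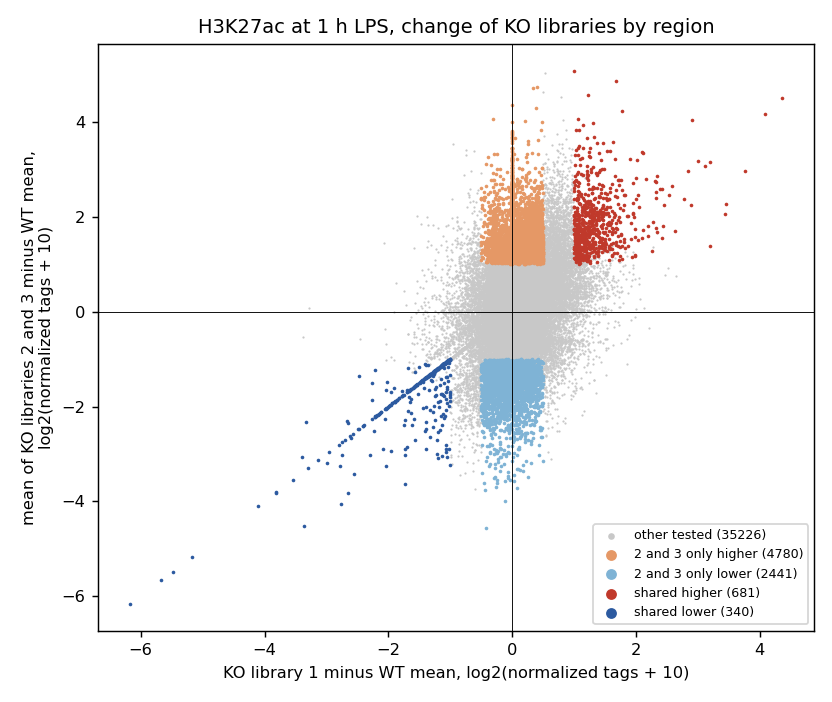
Change in H3K27ac at each of the 43468 tested regions, as log2(tags + 10) minus the mean of the 3 WT libraries, in KO library 1 (x axis) against the mean of KO libraries 2 and 3 (y axis). Colours mark the 681 and 340 regions at which all 3 KO libraries lay above or below WT, at upper right and lower left, and the 4780 and 2441 regions at which only libraries 2 and 3 did, around the vertical line at 0; the straight line at lower left holds regions listed at 0 in all 3 KO libraries.

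All 3 KO libraries were apart above WT at 681 regions (1.57% of those tested) and apart below WT at 340 (0.782%). These 1021 are called shared regions here. KO libraries 2 and 3 were apart and library 1 near at 4780 regions above WT (10.997%) and 2441 below (5.62%). The other ways to split the libraries were much rarer. KO libraries 1 and 2 without 3 gave 4 higher and 31 lower regions, and KO libraries 1 and 3 without 2 gave 61 higher and 1 lower. A single KO library was apart with the other two near at 115 higher and 95 lower regions for library 1, 7 and 299 for library 2, and 44 and 27 for library 3. All 3 KO libraries were near WT at 12876 regions. The classes are descriptions of these 6 libraries, with no test.

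The edges between the classes were not gaps. KO libraries 2 and 3 were both apart above WT at 7147 regions, and at 1495 of them KO library 1 lay between 0.5 and 1, in neither class. Below WT the corresponding numbers were 3435 and 471. Of the 321 called regions, 284 were shared (149 higher, 135 lower), none belonged to libraries 2 and 3 only, and 37 followed no class. Without KO library 1, 646 of 681 and 340 of 340 shared regions were called, together with 4696 of 4780 and 2440 of 2441 regions of libraries 2 and 3 only, which the rule largely fixes, since every class required libraries 2 and 3 to lie apart from WT.

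Many shared regions were listed at 0 throughout 1 genotype. Of the 681 shared higher regions, 291 were found in no WT library, and of the 340 shared lower regions, 218 were found in no KO library. Their median tags were low. Shared higher regions had medians of 20.8, 34.8 and 37.3 tags in KO libraries 1 to 3 and 0 in each WT library, against medians of 38.1 to 47.8 tags per library over all tested regions. Shared lower regions had medians of 26.9, 28.5 and 25.3 tags in WT and 0 in each KO library. With a floor common to the 6 libraries, set at the highest of their window floors after seeing the data, 532 shared higher and 915 shared lower regions were counted. The excess of higher over lower regions thus turned around. It also turned with quantile scaling, at 469 higher and 552 lower, and with a pseudocount of 50, at 21 and 48.

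The named shared regions are the 8 in each direction, among those called, whose smallest change over the 3 KO libraries was largest. At 15 of the 16, 1 genotype was listed at 0 in all 3 libraries, so these entered the test through the other genotype, their separation follows from the rule, and only 1 of the 16 could be tested when a region had to be found in all 6 libraries. Of the 16, 5 hold the start of a protein-coding gene, and 4 of these starts have a RefSeq promoter sequence (build GRCm38.p6, the assembly that mm10 names). The sequences are shown because these starts lie in named regions, and because 3 of them belong to 1 gene family. Each runs 5′ to 3′ on the strand of the gene, from 250 bases before the start to 50 after it. Capitals mark matches to an interferon-stimulated response element (ISRE; GAAA, any 2 bases, GAAA, or its complement TTTC, any 2 bases, TTTC) or to the element of the myeloid factor PU.1 (GAGGAAGT or ACTTCCTC).
Ifi202b, chr1:173982795-173983094, minus strand: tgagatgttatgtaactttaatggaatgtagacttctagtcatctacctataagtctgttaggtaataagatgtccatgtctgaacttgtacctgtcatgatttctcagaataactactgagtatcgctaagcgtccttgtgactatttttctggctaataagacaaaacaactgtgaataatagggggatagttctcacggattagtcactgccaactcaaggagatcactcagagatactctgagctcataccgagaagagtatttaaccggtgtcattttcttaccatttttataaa
Trim12a, chr7:104315446-104315745, minus strand: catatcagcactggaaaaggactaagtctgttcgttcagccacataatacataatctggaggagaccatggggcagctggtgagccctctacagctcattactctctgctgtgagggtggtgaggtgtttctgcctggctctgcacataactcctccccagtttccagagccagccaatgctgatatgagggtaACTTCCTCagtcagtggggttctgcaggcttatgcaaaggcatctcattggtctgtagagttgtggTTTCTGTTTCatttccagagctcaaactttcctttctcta
Ifi206, chr1:173491269-173491568, minus strand: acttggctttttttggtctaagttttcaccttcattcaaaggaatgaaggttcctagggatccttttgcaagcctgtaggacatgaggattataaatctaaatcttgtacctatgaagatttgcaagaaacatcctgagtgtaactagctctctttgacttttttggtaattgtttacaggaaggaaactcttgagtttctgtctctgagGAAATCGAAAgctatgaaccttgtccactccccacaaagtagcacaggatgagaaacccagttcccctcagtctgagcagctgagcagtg
Ifi213, chr1:173599223-173599522, minus strand: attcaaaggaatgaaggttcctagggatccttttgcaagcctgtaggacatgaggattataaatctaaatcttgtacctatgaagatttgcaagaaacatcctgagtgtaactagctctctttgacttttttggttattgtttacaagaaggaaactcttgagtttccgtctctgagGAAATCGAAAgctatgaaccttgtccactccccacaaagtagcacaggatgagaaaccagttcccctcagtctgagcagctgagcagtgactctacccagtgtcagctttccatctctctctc

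An ISRE match stands in the promoters of Trim12a, Ifi206 and Ifi213, whose H3K27ac was lower in KO, and none in the promoter of Ifi202b, whose H3K27ac was higher. Of 32851 RefSeq mouse promoters of the same length, 3.44% hold the ISRE letters and 3.20% the PU.1 letters. Over the whole length of the named shared regions, ISRE letters were in 4 of the 8 higher ones, that of Ifi202b included. They were in 6 of the 8 lower ones. These regions are longer than the promoters, so the promoter share is no background for them, and no whole-length share over all regions is given. A match is a description of the sequence, not a bound site. The windows of Ifi206 and Ifi213 share long identical stretches, so reads that could map to both would be uncertain.

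Trim12a, a TRIM family gene next to Trim5, had the most WT tags of the 8 lower regions. At the region over its start (chr7:104313311-104316574), the 3 KO libraries were listed at 0 and the WT libraries had 713, 687 and 725 tags. The adjusted p in limma was 2.7e-05.

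The Ifi200 family, interferon-inducible sensors of DNA, lies in 1 cluster on chromosome 1 and held regions that moved in opposite directions. At the start of Ifi206 (chr1:173489087-173492673) the KO libraries were listed at 0 and WT had 337, 377 and 344 tags (limma, adjusted p = 8.5e-05). At the start of Ifi213 (chr1:173597434-173600543) the KO libraries were again listed at 0, and WT had 144, 176 and 168 tags (limma, adjusted p = 0.00058). At the start of Ifi202b (chr1:173976339-173983562), KO had 409, 439 and 423 tags and WT 8.52, 13.2 and 24.2 (limma, change 4.15, SE 0.23, adjusted p = 0.001). All 3 KO libraries thus lay below WT at 2 starts of the cluster and above WT at the third.

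The other named shared lower regions were likewise listed at 0 in KO. A region chr7:106615376-106619649, between genes and 60935 bp from the start of the olfactory receptor gene Olfr693, had 475, 535 and 486 tags in WT and was listed at 0 in KO (limma, adjusted p = 5.3e-05). A region chr3:96486890-96490972, 34200 bp from the start of the iron-metabolism gene Hfe2, had 455, 408 and 453 tags in WT and was listed at 0 in KO (limma, adjusted p = 5.4e-05). WT tags were 129, 131 and 135 at an exon of the Fc receptor-like gene Fcrl1 (chr3:87399827-87402640; limma, adjusted p = 0.00084). The remaining lower regions were at the start of Gm4070, with 136, 139 and 116 tags in WT, and within an intron of Tmem72, with 98.9, 125 and 97.9 tags in WT. KO was listed at 0 in every library at each of these. The call at Tmem72 was lost without WT library 3 (limma, adjusted p = 0.052), whereas the other 7 lower regions were called with each library left out in turn.

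Among the shared higher regions, one lay between genes, 57408 bp from the start of Fam241a (chr3:127953732-127957935). It had 196, 208 and 231 tags in the KO libraries, with every WT library at 0 (limma, adjusted p = 0.00037). A region inside an intron of Kcnab1 (chr3:65197482-65201455), which encodes a potassium channel subunit, had 82.3, 76.2 and 83.6 tags in KO (limma, adjusted p = 0.0031). A pair of regions at Gm16867 on chromosome 14, one over an exon (chr14:69490496-69492981) and one next to the start (chr14:69503599-69506156), had 70.1, 81.9 and 78.8 tags and 77.3, 66.4 and 82.9 tags in KO. WT was listed at 0 in every library at each of these 4 regions.

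The other 3 named higher regions varied more among the KO libraries. A region 159484 bp from the start of Nuf2 (chr1:169367564-169371980) had 64.7, 158 and 151 tags in KO, with library 1 the lowest. An exon of Celf3, whose nearest start is that of Riiad1 (chr3:94486463-94489098), had 126, 62.4 and 75.2 tags, with library 1 the highest. A region in an intron of Pebp4, 73792 bp from the start of Egr3 (chr14:69999681-70003411), had 61.5, 59.2 and 79.3 tags. WT was listed at 0 throughout, and the adjusted p-values in limma were 0.011, 0.01 and 0.0069. These 3 calls were lost on leaving out any single library other than KO library 1, with adjusted p-values of 0.052 to 0.14. The call at Kcnab1 was lost without WT library 3 (limma, adjusted p = 0.052). Those at Gm16867 were lost without any WT library, and the one next to its start also without KO library 3 (limma, adjusted p-values of 0.051 to 0.066), whereas the calls at Fam241a and Ifi202b were kept.

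**Figure D2:**
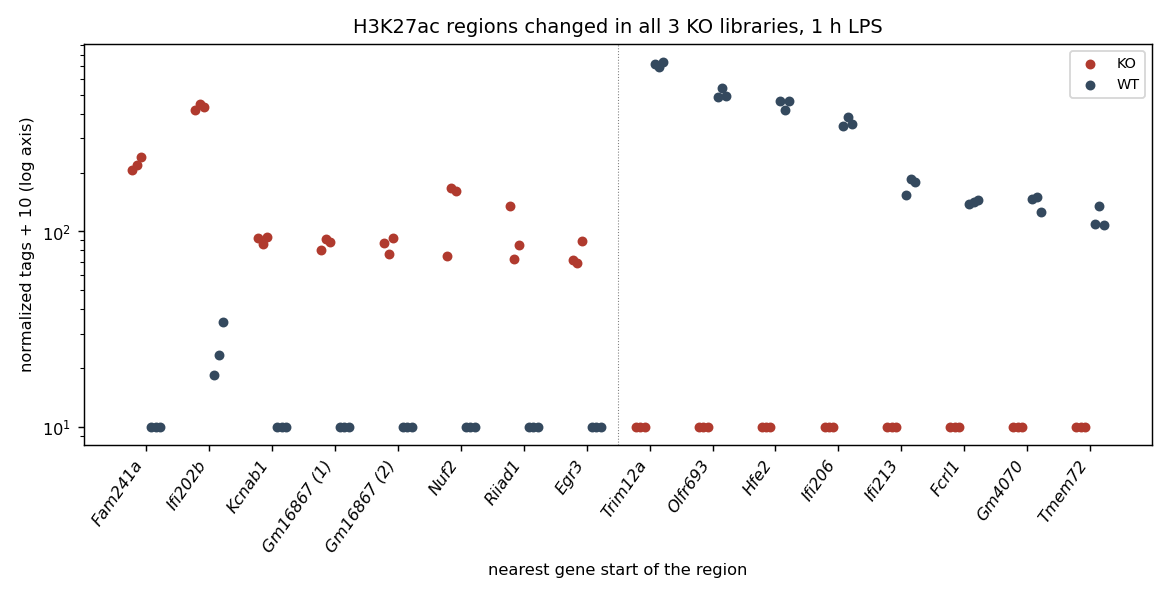
Tags per 10 M in each of the 3 KO (red) and 3 WT (dark blue) libraries at 1 h of LPS for the 16 named shared regions, labelled by the nearest gene, on a log axis of tags + 10; each point is 1 library and 0 means that no region was found. The genotypes do not overlap at any of the 16 regions, as the rule that chose them requires.

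The positions of the shared regions are given as a description, with no test. The genome was divided into windows of 5 Mb, of which 528 held tested regions, and 10 or more shared regions fell in 10 of them. The window chr1:170-175 Mb, which contains the Ifi200 cluster, had 62 shared regions among 208 tested, 12 higher and 50 lower, and 16 of libraries 2 and 3 only. Further windows were on chromosome 14 at 70 to 75 Mb with 18 shared regions of 163 tested. Chromosome 3 at 125 to 130 Mb had 14 of 73, and chromosome 8 at 40 to 45 Mb had 11 of 40. No shared region fell in 153 windows. The window of Nr4a1 itself, chromosome 15 at 100 to 105 Mb, held 5 shared regions among 154 tested (3.25%). The neighbouring window from 95 Mb held 12 among 159 (7.55%). Over the genome 1021 of 43468 tested regions were shared.

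**Figure D3:**
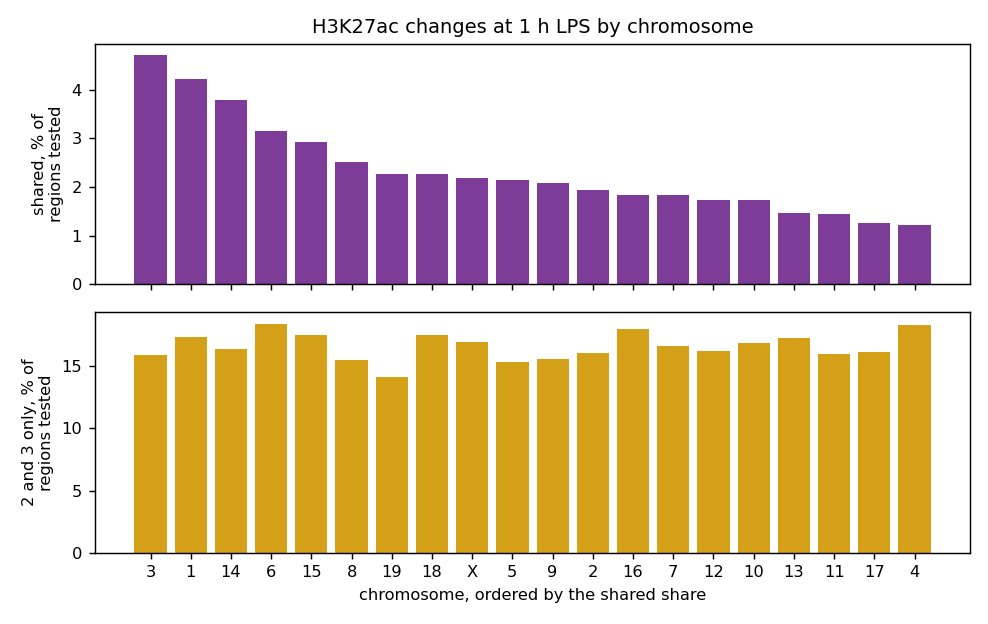
Share of tested regions per chromosome that were shared by all 3 KO libraries and that belonged to KO libraries 2 and 3 only, in percent; the Y chromosome, with 20 tested regions, is left out. The shared class ranges from 1.23% on chromosome 4 to 4.71% on chromosome 3, while the class of libraries 2 and 3 only stays between 14.1 and 18.4%.

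Some shared regions were also called between genotypes in cells that had not received LPS, in libraries that were not used to choose them. Of all merged regions that could be tested at 0 h, 1.54% were called between KO and WT in limma, 1.07% higher and 0.475% lower. Of the 681 shared higher regions 626 could be tested at 0 h, 92 were called higher and none lower. Of the 340 shared lower regions 177 could be tested, 91 were called lower and none higher. A region found in only 1 genotype entered the test through it, so the direction of its change was fixed. KO libraries 1 to 3 of 0 h lacked 233, 230 and 228 of the 340. The same limit holds at 18 h and for Pol II below. The region at the start of Ifi202b had 404, 503 and 410 tags in the KO libraries of 0 h, with every WT library at 0 (limma, adjusted p = 2.8e-07). For Trim12a, WT had 260, 293 and 260 tags at 0 h and KO was listed at 0 (limma, adjusted p = 2.8e-07). Both regions entered the 0 h test through 1 genotype, which fixed the direction of the change. Of the 16 named regions only the one at Kcnab1 was absent from both genotypes at 0 h, apart from 6.18 tags in 1 KO library.

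After 18 h of LPS, 0.623% of regions were called, 0.284% higher and 0.339% lower. There, 43 of the 495 shared higher regions that could be tested were called higher and none lower, and 59 of the 210 shared lower regions that could be tested were called lower and none higher. Without KO library 1 of 18 h, which stood apart, the counts were 78 higher with 3 lower of 467 tested and 85 lower with 2 higher of 206, where 2.26% of all regions were called, 1.34% higher and 0.921% lower. Leaving out another 18 h library lowered them to 11 to 19 and to 26 to 36, 13 and 36 without KO library 2, 19 and 35 without KO library 3, 11 and 31 without WT library 1, 12 and 26 without WT library 2, and 12 and 29 without WT library 3. Trim12a in WT reached 1089, 1064 and 996 tags over its start at 18 h while KO stayed listed at 0. For Ifi206, KO had 32.8, 91.2 and 67.5 tags at 18 h, against 1044, 1095 and 998 in WT.

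Pol II was measured at the same time in separate libraries, which the classes did not use. Whether they came from the same cultures as the H3K27ac libraries is not stated. Pol II was called between genotypes at 4.7% of the regions tested, 3.77% higher in KO and 0.922% lower. Of the 186 shared higher regions tested for Pol II, 52 were called higher and 1 lower. Of the 133 shared lower regions tested, 45 were called lower and 2 higher. Pol II over Ifi202b was 601, 550 and 612 tags in KO and 0, 0 and 6.47 in WT (limma, change 5.66, adjusted p = 0.00013). Over Trim12a it was listed at 0 in KO and was 256, 271 and 271 tags in WT (limma, adjusted p = 4.6e-06). In Pol II the genotypes did not overlap at these starts, while their separation in H3K27ac follows from the rule that named them. Ifi202b passed the Pol II filter through KO and Trim12a through WT.

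The regions of KO libraries 2 and 3 only were more numerous than the shared regions, and their share of tested regions was more even between chromosomes. At the 4780 higher regions, median tags were 16.8 in KO library 1, 65.1 and 66.7 in KO libraries 2 and 3, and 15.2, 14.8 and 15.3 in WT. At 0 h the same regions had medians of 49.6 to 53.8 tags in the 6 libraries of both genotypes. At the 2441 lower regions, median tags were 53.7 in KO library 1, 7.64 and 11.3 in KO libraries 2 and 3, and 54.4, 60.2 and 56.0 in WT, and at 0 h they were 11.7 to 15.9 in the 6 libraries. The rule used all 6 libraries of 1 h, so their distances from each other are no finding, while the 0 h libraries did not enter it.

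**Figure D4:**
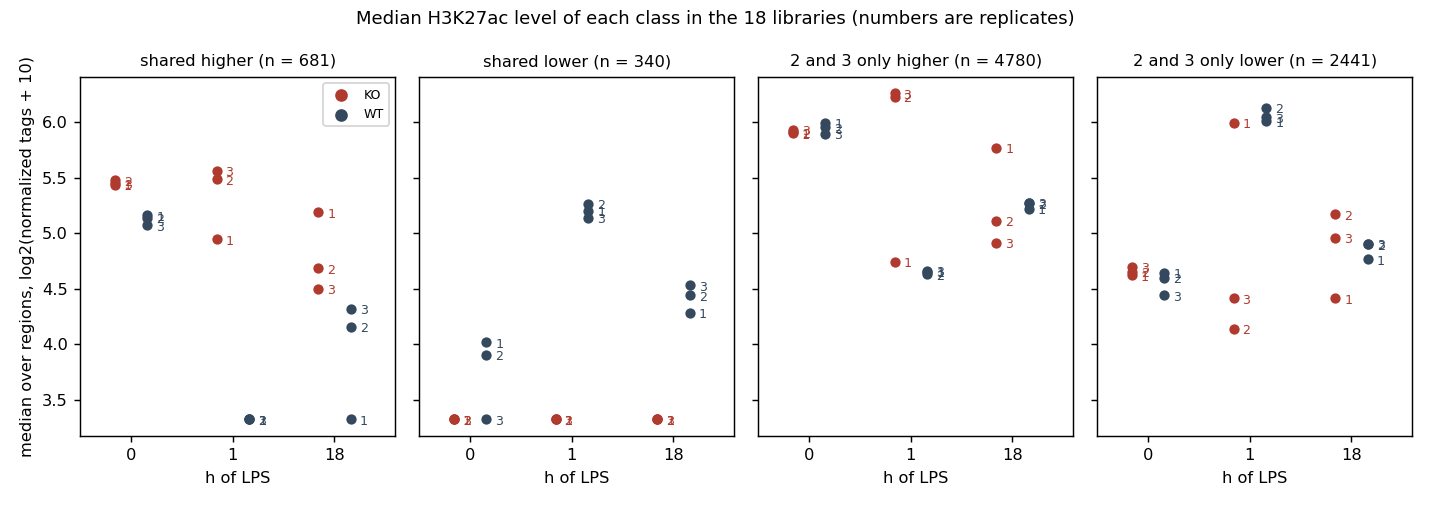
Median over regions of log2(tags + 10) (y axis) in each of the 18 H3K27ac libraries, by hours of LPS and genotype, for the 4 classes of regions; each point is 1 library and its number the replicate. In the classes of KO libraries 2 and 3 only, KO libraries 2 and 3 of 1 h sit away from the other 4 libraries of 1 h, as the rule requires, and KO library 1 of 18 h sits away from the other 2 KO libraries of 18 h.

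In libraries that the rule did not use, KO was compared with WT at the same regions. At 0 h, 29 of the 4222 higher regions tested (0.687%) were called higher and 7 (0.166%) lower, and 14 of the 1638 lower regions tested (0.855%) were called higher and 3 (0.183%) lower, against 1.07% and 0.475% of all regions. Without WT library 1 of 0 h, 46 of the higher regions were called higher, and 5, 5 and 7 of the lower regions were called lower without KO library 3, WT library 2 and WT library 3. At 18 h, 3 of 3612 higher regions (0.0831%) were called higher and 1 of 1741 lower regions (0.0574%) was called lower in limma, against 0.284% and 0.339% of all regions. Without KO library 1 of 18 h these were 14 of 3452 (0.406%) and 6 of 1701 (0.353%), while 51 of the higher regions (1.48%) were called lower and 58 of the lower regions (3.41%) higher, against 1.34% higher and 0.921% lower over all regions. With 1 of the other 5 libraries of 18 h left out they were 0 or 1. In KO library 1 of 18 h, regions were counted that lay over 1 from the WT mean and beyond the other 5 libraries. Above, these were 22.1% of the higher regions, against 10.98% of all tested regions. Below, they were 21.5% of the lower regions, against 6.73%. In KO libraries 2 and 3 of 18 h, 1.21 and 0.502% of the higher regions lay more than 1 above WT. All tested regions gave 2.43 and 1.26%. Of the lower regions, 0.246 and 0.983% lay more than 1 below WT, against 0.771 and 1.88% over all tested regions. In the opposite direction, 1.05 and 3.49% of the higher regions lay below WT and 6.23 and 2.74% of the lower regions above it.

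Of the 1587 higher regions tested for Pol II at 1 h, 110 (6.93%) were called higher in KO and 17 (1.07%) lower, against 3.77% and 0.922% of all regions tested. Of the 1492 lower regions tested, 62 (4.16%) were called higher and 13 (0.871%) lower. With each library centred on its median, 44 of the higher regions (2.77%) were called higher, against 1.72% of all regions, and 30 of the lower regions (2.01%) were called lower, against 1.61%.

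The named regions of this class are the 6 in each direction with the largest change in both KO libraries 2 and 3. None was called in limma over the 6 libraries, with adjusted p-values of 0.11 to 0.17. The NBRE bound by Nur77 (AAAGGTCA, complement TGACCTTT) and the AP-1 element bound by Fos and Jun (TGAGTCA or TGACTCA) were searched within 1000 bp around the centre of every named region, and all 8 matches, in 4 of these 12 regions and 3 of the 16 shared ones, are shown. Over their whole length, 8 of the 12 and 8 of the 16 regions hold either element, with no whole-length share over all tested regions given. The element is in capitals, on the strand that reads as shown, build GRCm38.p6.
Tas2r138 NBRE, chr6:40615505-40615592, plus strand: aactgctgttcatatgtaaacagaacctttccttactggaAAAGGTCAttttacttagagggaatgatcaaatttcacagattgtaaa
Zfp958 NBRE, chr8:4627352-4627439, minus strand: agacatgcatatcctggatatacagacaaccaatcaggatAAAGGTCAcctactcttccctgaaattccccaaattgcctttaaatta
Rpgrip1 NBRE, chr14:52133370-52133457, minus strand: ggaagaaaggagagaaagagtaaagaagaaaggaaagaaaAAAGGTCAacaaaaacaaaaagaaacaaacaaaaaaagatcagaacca
Trim12a NBRE, chr7:104314898-104314985, plus strand: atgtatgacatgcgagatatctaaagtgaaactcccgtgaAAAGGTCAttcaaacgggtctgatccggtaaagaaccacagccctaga
Zfp958 AP-1, chr8:4627469-4627525, minus strand: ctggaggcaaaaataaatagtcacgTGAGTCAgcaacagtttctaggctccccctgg
Dct AP-1, chr14:117639345-117639401, minus strand: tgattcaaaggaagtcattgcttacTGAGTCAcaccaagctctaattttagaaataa
Gm16867 AP-1, chr14:69491626-69491682, plus strand: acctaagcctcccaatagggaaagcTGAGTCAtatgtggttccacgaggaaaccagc
Ifi213 AP-1, chr1:173598487-173598543, plus strand: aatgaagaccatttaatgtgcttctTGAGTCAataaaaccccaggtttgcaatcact

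At the start of Tas2r138 (chr6:40612807-40618392), a bitter taste receptor gene, KO libraries 2 and 3 had 310 and 302 tags, KO library 1 had 5.67, and the WT libraries 0, 0 and 6.71. At an exon of Cdk5rap2 (chr4:70396141-70402857), which encodes a centrosome protein, KO libraries 2 and 3 had 301 and 317 tags, KO library 1 had 5.25 and WT 7.77, 0 and 0. At the zinc finger gene Zfp958 (chr8:4625605-4629932) KO libraries 2 and 3 had 198 and 192 tags and the other 4 libraries were listed at 0. At each of these, KO library 1 lay at the level of WT and far from the other KO libraries.

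The other 3 higher regions were chosen by the same rule, which requires KO library 1 to lie near WT. Over the start of Fam84b (chr15:60852537-60856092) KO had 5.67, 227 and 220 tags and WT 0, 0 and 6.95. In an intron of Gpc6, a heparan sulphate proteoglycan gene, whose nearest start is that of Dct (chr14:117635083-117643457), KO had 0, 192 and 204 tags and WT 8.89, 0 and 0. At an exon of Mapkap1 (chr2:34436444-34442355), a subunit of the kinase complex mTORC2, KO had 0, 147 and 155 tags and WT was listed at 0. KO library 1 of 18 h had more tags than the other 5 libraries of 18 h at Cdk5rap2 (619 against 80.5 to 96.1), Zfp958 (379 against 88.1 to 111.5) and Mapkap1 (276 against 8.98 to 24.3), which were singled out after their values were seen. At the other 3 it had 143 tags against 81.1 to 110.4 at Fam84b, 6.59 against 0 at Tas2r138, and none in any 18 h library at Dct.

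The lower regions were chosen for the reverse. The region chr7:101596597-101602905, between genes and 10997 bp from the start of the ADP-ribosyltransferase gene Art2b, had 167 tags in KO library 1, none in KO libraries 2 and 3, and 227, 256 and 201 in WT. That region was listed at 0 in all 12 libraries of 0 h and 18 h. At an exon of Tmem176a (chr6:48845080-48848456; nearest start Tmem176b) KO had 137, 0 and 0 tags and WT 156, 126 and 167. In an intron of Iqch (chr9:63462437-63466708; nearest start 2300009A05Rik) KO had 89.8, 0 and 0 tags and WT 107, 131 and 138.

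At an exon of Rpgrip1 (chr14:52132433-52134882) KO had 93.4, 0 and 0 tags and WT 103, 121 and 113. At chr7:125536551-125541570, 10550 bp from the start of Il4ra, the receptor chain for interleukin-4, KO had 82.1, 0 and 0 tags and WT 111, 94.1 and 105. At chr1:130427588-130431254, 4579 bp from the start of Cd55b, KO had 125, 0 and 0 tags and WT 80.3, 124 and 106. KO libraries 2 and 3 were thus listed at 0 at all 6 lower regions, chosen for it, where the other 4 libraries had at least 80.3 tags.

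Gene starts lay inside few regions of either class. A protein-coding start fell inside 2.64% of shared higher and 7.35% of shared lower regions, 9.25% of the higher and 10.9% of the lower regions of libraries 2 and 3 only, and 21.7% of all tested regions. Within 1000 bp around the region centre, ISRE letters were found in 13.8% of shared higher and 32.1% of shared lower regions, and in 14.5% of the higher and 25.8% of the lower regions of libraries 2 and 3 only, against 17.4% of all tested regions. AP-1 letters were found in 34.9 and 20.3% of shared regions and in 32.3 and 22.2% of the others, against 25.4%. The NBRE was found at 5.43 and 5.88% of shared higher and lower regions and at 5.46 and 6.31% of the others, against 5.04% of all tested regions. PU.1 letters were found at 13.5 and 8.24% of shared higher and lower regions and 15.1 and 10.9% of the others, against 12.8%. In both classes the AP-1 share was larger in higher than in lower regions and the ISRE share larger in lower than in higher regions, which was not tested.

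H3K27ac was next summed within 2500 bp of each protein-coding gene start, which gave 11829 tested genes. In limma 29 were called at an adjusted p under 0.05, 0.245% of those tested, 5 higher in KO (0.0423%) and 24 lower (0.203%). At an unadjusted p under 0.05 there were 3042. Of the 29, 8 lie on chromosome 1 between 170 and 175 Mb, 3 on chromosome 7 between 100 and 105 Mb, and 2 each on chromosome 14 between 65 and 70 Mb and on chromosome 19 between 35 and 40 Mb. The balance of directions was not stable. Without KO library 1, 6366 genes were called, 3812 higher and 2554 lower, with all 18 libraries in the fit 1297 higher and 859 lower, and with array weights 4185 higher and 2864 lower. Without KO library 2 or 3 there were 11 or 13, and without WT library 1, 2 or 3 there were 8, 8 or 5. The genes named in the next 3 paragraphs are among the 29 and were chosen after their values were seen.

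Next to Trim12a, the antiviral gene Trim5 had 25.6, 19.7 and 22.6 tags in KO and 263, 273 and 287 in WT (limma, change -3.13, SE 0.13, adjusted p = 0.00013). Trim30d had 26.2, 6.79 and 5.57 tags in KO and 374, 367 and 351 in WT (limma, change -4.14, adjusted p = 0.0051). Ifi209, a further Ifi200 gene, had 260, 198 and 176 tags in KO and 646, 585 and 646 in WT (limma, change -1.54, SE 0.14, adjusted p = 0.012). At these starts the KO libraries were all below the WT libraries.

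Fcgr2b, the inhibitory receptor for IgG, had 127, 157 and 135 tags in KO and 308, 336 and 339 in WT (limma, change -1.18, SE 0.11, adjusted p = 0.012). Fcgr3, an activating receptor for IgG, had 39.1, 44.3 and 51.3 tags in KO and 104, 117 and 126 in WT (limma, change -1.20, SE 0.15, adjusted p = 0.044). Apobec3, a cytidine deaminase that restricts retroviruses, had 311, 246 and 253 tags in KO and 560, 507 and 572 in WT (limma, change -0.99, SE 0.11, adjusted p = 0.028). Smaller changes were called at Oas2, an antiviral synthetase, at -0.78, at the immunoproteasome gene Psmb8 at -0.67, at Xaf1 at -0.65 and at the adhesion gene Pecam1 at -0.61.

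Of the 5 genes called higher, Tnfrsf10b, a receptor for the death ligand TRAIL, had 92.2, 100.2 and 95.4 tags in KO and 13.0, 8.91 and 9.34 in WT (limma, change 2.38, SE 0.17, adjusted p = 0.0033). Kif11, a mitotic motor protein, had 366, 353 and 345 tags in KO and 194, 195 and 199 in WT (limma, change 0.82, SE 0.08, adjusted p = 0.013). Its neighbour Btaf1 had 877, 986 and 710 tags in KO and 376, 403 and 400 in WT (limma, change 1.09, SE 0.13, adjusted p = 0.032). Ifi202b and Gm16867 were the others.

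No gene of the lists drawn up for LPS responses was called at its start. The lists held 15 AP-1 genes, 3 NR4A genes, 15 early LPS genes, 10 late inflammatory genes, 13 interferon-response genes, 5 NF-kB subunit genes, 7 LXR and cholesterol efflux genes, 10 DNA replication and mitosis genes and 6 reference genes, 84 in all, each tested, and 0 were called in either direction in limma, with 34 at an unadjusted p under 0.05. Over all genes, 3042 of 11829 had an unadjusted p under 0.05. Without KO library 1, 54 of the 84 were called, 13 higher and 41 lower. Over all genes this fit called 6366 of 11786, 3812 higher and 2554 lower. Array weights called 56 of the 84 and 7049 of 11829 genes. All 18 libraries in the fit gave 21 of the 84 and 2156 of 11829 genes. Leaving out any other single library gave 0 calls in the lists. The gene Igsf3, kept as a list of its own, was not tested, with 5.88, 0 and 0 tags in KO and 9.26, 0 and 0 in WT. The median change over all tested genes was 0.05. At the gene level 13% of all tested genes had all 3 KO libraries below the WT range and 15.9% had them above, and 29.6% and 42% had KO libraries 2 and 3 below and above.

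The NR4A genes, whose products bind the same element, are given first because Nr4a1 is the deleted gene. Nr4a1 had 28.4, 37.4 and 46.2 tags in KO and 32.2, 45.3 and 18.9 in WT, so the groups overlapped (limma, change 0.20, adjusted p = 0.65), and a mark at the start does not check the deletion. Its direction turned with a window of 500 bp or without WT library 3, at -0.10 and -0.046. Nr4a3 had 312, 562 and 517 tags in KO and 244, 239 and 264 in WT (limma, change 0.83, SE 0.21, adjusted p = 0.12). Nr4a2 had 189, 104 and 130 tags in KO and 197, 172 and 198 in WT (limma, change -0.43, adjusted p = 0.22). At Nr4a2 and Nr4a3, KO libraries 2 and 3 lay farther from WT than library 1 did.

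The AP-1 list had a median change of 0.10, from -0.85 at Batf3 to 0.66 at Atf3. At Jun, a subunit of AP-1, KO had 543, 727 and 726 tags and WT 504, 473 and 482 (limma, change 0.43, adjusted p = 0.13). At Fosb KO had 90.5, 113.5 and 100.0 tags and WT 66.3, 69.5 and 76.9 (limma, change 0.46, adjusted p = 0.13). Fos itself had 455, 480 and 432 tags in KO and 390, 488 and 398 in WT (limma, change 0.10, adjusted p = 0.54). The KO libraries all lay above WT at Jun and Fosb, and they overlapped WT at Fos.

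At Batf3 KO had 71.0, 28.6 and 34.9 tags and WT 66.6, 100.5 and 86.9, so library 1 lay inside the WT range and libraries 2 and 3 below it. Atf3, an early stress-response factor, had 27.1, 51.9 and 58.0 tags in KO and 23, 31.7 and 18.9 in WT. The other AP-1 genes had changes of -0.02 at Junb, -0.10 at Jund, 0.17 at Fosl1, -0.07 at Fosl2, -0.10 at Atf4, 0.22 at Atf5, 0.18 at Atf7, 0.10 at Batf, 0.23 at Batf2 and -0.10 at Jdp2. The lowest adjusted p of the list was 0.13 (limma). All 3 KO libraries were above the WT range at 3 of the 15 AP-1 genes and below it at none. Over all tested genes the shares were 15.9% and 13%.

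Genes of the later LPS response had their lowest medians in KO libraries 2 and 3. The late inflammatory list had median changes of -0.30 in KO library 1, -0.97 in library 2 and -0.94 in library 3, and at 5 of its 10 genes both libraries 2 and 3 were apart below WT, against 393 of the 11829 genes tested. Interleukin-1 alpha (Il1a) had 329 tags in KO library 1, 80.8 and 81.2 in libraries 2 and 3, and 418, 372 and 304 in WT (limma, change -1.40, SE 0.49, adjusted p = 0.16). Interleukin-6 (Il6) had 160, 77.0 and 70.5 tags in KO and 218, 232 and 220 in WT (limma, change -1.14, adjusted p = 0.11). For Il12b, a subunit of interleukin-12, KO had 94.4, 22.5 and 43.3 tags and WT 97.8, 128 and 125 (limma, change -1.16, adjusted p = 0.16). The acute phase gene Saa3 had 81.3, 26.7 and 37.2 tags in KO and 114, 88.8 and 116 in WT (limma, change -1.09, adjusted p = 0.14). KO library 1 was inside the WT range only at Il1a of these genes, and libraries 2 and 3 were below it at all 4.

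The interferon-response list had median changes of -0.14, -0.77 and -0.90 in KO libraries 1 to 3. All 3 KO libraries lay below the WT range at 8 of its 13 genes, and libraries 2 and 3 at 12. Over all tested genes the shares were 13% and 29.6%. All 3 also lay below it at 5 of 10 DNA replication and mitosis genes, 4 of 10 late inflammatory genes and 2 of 6 reference genes. Mx1, an antiviral GTPase, had 428, 231 and 240 tags in KO and 598, 567 and 588 in WT (limma, change -0.997, adjusted p = 0.1). Irf7, a transcription factor of the interferon response, had 333, 246 and 244 tags in KO and 533, 537 and 524 in WT (limma, change -0.94, SE 0.13, adjusted p = 0.051). The chemokine gene Ccl5 had 876, 454 and 415 tags in KO and 1141, 1083 and 1022 in WT (limma, change -0.97, adjusted p = 0.13), and Cmpk2 had 405, 241 and 328 tags in KO and 593, 671 and 631 in WT (limma, change -0.97, adjusted p = 0.075). At these 4 genes KO library 1 lay between WT and the lower of the other KO libraries. The adjusted p of Irf7 ranged from 1.9e-05 to 0.29 over 14 alternative settings.

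Early LPS genes had median changes of 0.03, -0.34 and -0.46 in KO libraries 1 to 3. All 3 KO libraries lay below the WT range at 3 of 15, against 13% of all tested genes. Socs3, a feedback inhibitor of cytokine signalling, had 441, 351 and 349 tags in KO and 592, 672 and 617 in WT (limma, change -0.71, SE 0.12, adjusted p = 0.063). Dusp1, a phosphatase that turns off MAP kinases, had 300, 195 and 205 tags in KO and 325, 301 and 314 in WT (limma, change -0.44, adjusted p = 0.17). Cxcl2 had 509, 274 and 244 tags in KO and 592, 511 and 476 in WT (limma, change -0.68, adjusted p = 0.18). Cxcl1 had 451, 102 and 237 tags in KO and 136, 511 and 476 in WT, and in some libraries 1 deposited region covers both Cxcl1 and Cxcl2. The groups overlapped at Cxcl1 and Cxcl2 and not at Socs3 and Dusp1.

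NF-kB subunit genes had median changes of 0.03, -0.25 and -0.42 in the 3 KO libraries. They included Nfkb1 at -0.48, Rel at -0.29, Relb at -0.21 and Rela at 0.17, with adjusted p-values of 0.16 or more in limma. LXR and cholesterol efflux genes had medians of 0.12, 0.06 and -0.32, with Mylip at -0.27, Srebf1 at 0.25, Lpcat3 at -0.19 and Apoe at 0.09. DNA replication and mitosis genes had medians of -0.11, -0.16 and -0.26, with Mcm5 at -0.81, Top2a at -0.60, Mcm6 at -0.45 and Mcm2 at 0.41. Reference genes had medians of -0.10, 0.22 and 0.01, with Hprt at 0.57, Actb at -0.45, Ppia at -0.21 and Gapdh at 0.09. Single reference genes thus had differences as large as those of many listed genes.

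**Figure D5:**
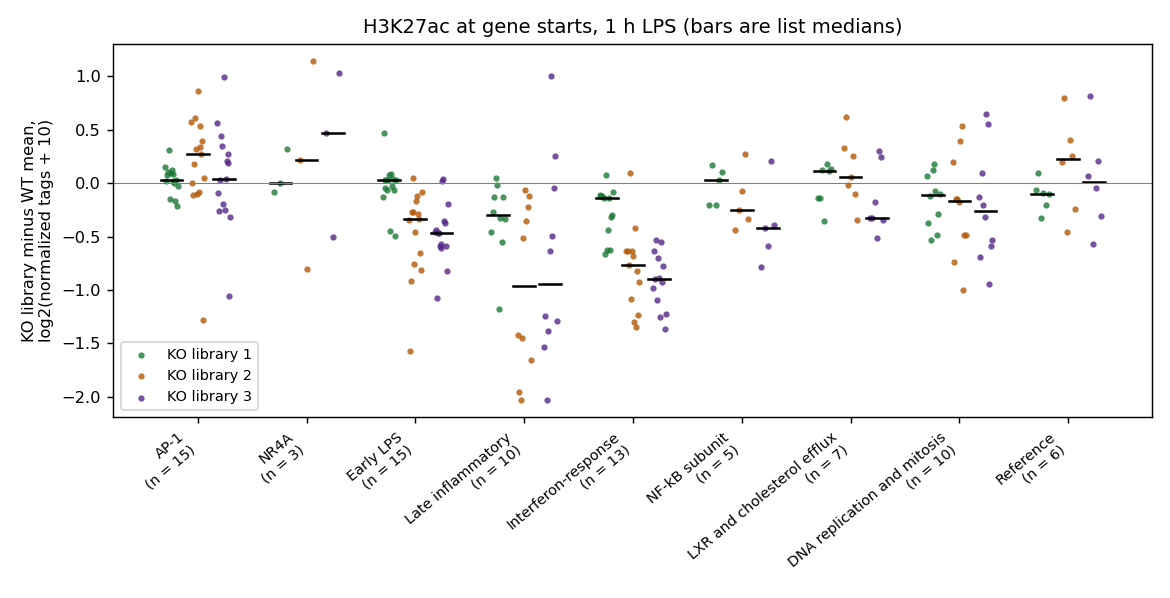
Change of H3K27ac within 2500 bp of the gene start, as log2(tags + 10) minus the mean of the 3 WT libraries, for each gene of the lists in KO libraries 1, 2 and 3 at 1 h of LPS; points are genes and bars are list medians. The late inflammatory and interferon-response lists have medians of -0.30 and -0.14 in KO library 1 and of -0.97 to -0.77 in KO libraries 2 and 3.

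Pol II at gene starts, measured in libraries that did not split, was called at more of the listed genes than H3K27ac was. Interferon-response, late inflammatory and early LPS genes had less Pol II in KO, in limma, at a share of genes well above that of all genes. Of 10930 genes tested, 38% were called at an adjusted p under 0.05, 32.9% higher in KO and 5.14% lower, and the median change was 0.26. Of the 13 interferon-response genes 9 fell and none rose, of 9 late inflammatory genes tested 6 fell and none rose, and of 15 early LPS genes 10 fell and 1, Egr1, rose. Cxcl1 and Cxcl2 share their Pol II values, as do Ccl3 and Ccl4, so the 10 are 8 separate measurements. With each library centred on its median, chosen after seeing the data, 785 genes were called higher and 1362 lower, and the lists gave 12, 8 and 11 lower genes with 0, 0 and 1 higher.

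Mx1 had 579, 531 and 534 Pol II tags in KO and 1152, 1080 and 1170 in WT (limma, change -1.04, SE 0.06, adjusted p = 0.00011). Il12b had 840.2, 703 and 699 Pol II tags in KO and 1318, 1412 and 1441 in WT (limma, change -0.89, SE 0.08, adjusted p = 0.001). Irf7 had 193, 135 and 191 Pol II tags in KO and 318, 278 and 352 in WT (limma, change -0.84, SE 0.15, adjusted p = 0.0062). The 3 KO libraries of Pol II were all below WT at these starts.

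Il1a, with the largest H3K27ac difference of its list, had 4506, 3733 and 3832 Pol II tags in KO and 3529, 3598 and 3812 in WT, so that the groups overlapped. Of the 14 AP-1 genes tested for Pol II, 3 were higher in KO and 1 lower, against 32.9% and 5.14% of all genes, or 2 and 2 after centring. Jun had 399, 437 and 438 Pol II tags in KO and 239, 233 and 248 in WT (limma, change 0.80, SE 0.06, adjusted p = 0.00054). Nr4a3 had 179, 154 and 160.5 Pol II tags in KO and 77.8, 96.3 and 115 in WT (limma, change 0.72, SE 0.13, adjusted p = 0.0075), and Nr4a1 was listed at 0 in all 6 libraries. Reference genes were not level in Pol II either, with 1 higher and 2 lower of 6, and Actb at 2734, 2442 and 2532 Pol II tags in KO against 5075, 4978 and 5225 in WT (limma, change -0.99, adjusted p = 1.0e-04).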

How the data were processed

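H3K27ac ChIP-seq reads were trimmed with Skewer, aligned to mm10 with HISAT2 2.1.0 and stripped of duplicates by the authors, who then found regions in each library on its own with HOMER in histone style. Per the file headers, windows of 500 bp had to pass a Poisson threshold of 0.001 with no input control, and windows closer than 1000 bp were joined. The signal in the deposited files is the normalized tag count of each region, scaled to 10 M tags. Libraries held 13.5 M to 47.5 M tags, and a deeper library could report weaker regions. No column belonged to another sample.

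Regions of the 6 libraries were merged on overlap and tags summed per library, and 79.8% of merged regions overlapped an input region. A region present in 2 or 3 libraries of either genotype was tested with limma 3.58.1 (R 4.3.3, trend) on log2(tags + 10), with Benjamini-Hochberg adjustment over all regions. The same test was run on tags within 2500 bp of gene starts (GENCODE vM21, 21897 protein-coding genes) and on the 0 h, 18 h and Pol II libraries. Scripts used Python 3.11.15 with pandas 2.3.3. The test was tried on simulated data with the spread of the WT libraries in both groups, which does not cover the split among the KO libraries. Named regions were the 8 shared and called regions per direction whose smallest change over the KO libraries was largest, and the 6 of libraries 2 and 3 only. Named genes were those of the AP-1 and NR4A lists and up to 4 per other list with the largest change. The classes, members and lists were chosen with earlier results of these data known. Alternatives covered the pseudocount, filter, scaling, merging, window, thresholds and each library left out.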

Additional observations from a re-analysis of the deposited data

How the results depend on the processing

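Against 321 called regions, limma gave 6209 with all 18 libraries in the fit, 12257 with array weights, 716 with a floor common to the 6 libraries (chosen after seeing the data), 82 when a region had to be found in all 6, 94 with a mean of at least 50 tags, 40 without regions overlapping input, 984 with a pseudocount of 1 and 106 with 50, and 16 to 11882 with 1 library left out. Against 29 gene starts it gave 2156 with 18 libraries, 7049 with array weights, 19 with a window of 500 bp, 48 with a pseudocount of 50, 54 with quantile scaling and 5 to 6366 with 1 library left out. With the replicate number as a block there were 23 regions and 13 gene starts, and 10 of the 16 named shared regions were called. Deviations of same-numbered libraries correlated at -0.10, -0.07 and -0.05, so the numbers were not taken as a pairing. The cause of these shifts was not tested.

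Shared higher regions numbered 2394 with a pseudocount of 1, 21 with 50, 2635 with a threshold of 0.58 for apart, 87 when found in all 6 libraries, 79 with a mean of at least 50 tags and 145 without input overlap. Shared lower regions numbered 611, 48, 938, 69, 63 and 76 in the same order, 552 with quantile scaling and 915 with the common floor. Regions of libraries 2 and 3 only numbered 1749 higher and 662 lower with a pseudocount of 50, 9620 and 4635 with 0.58, 3151 and 1494 with near set at 0.25, 2557 and 1330 in all 6 libraries, 1977 and 1093 with a mean of at least 50 tags, and 863 and 405 without input overlap. With a WT library left out, chosen after seeing the data, the 4 counts were 750 to 908, 439 to 483, 4692 to 4746 and 2435 to 2696.

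At 0 h, leaving out a library gave 24 to 46 higher and 3 to 7 lower calls in the regions of libraries 2 and 3 only. At 18 h it gave 11 to 78 and 26 to 85 calls in shared higher and lower regions, and 0 to 14 and 0 to 6 in the others, which centring moved to 6 and 0. Centring moved their Pol II calls to 44 and 30. The difference in regions per library was 1818 to 3617 with a library left out, and that in the share of tags 3.30 to 4.39.

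None of the named regions changed direction under these alternatives. Among the named genes of the lists, leaving out a library took the change from -0.083 to 0.026 for Junb (0.014 without KO library 3), -0.17 to 0.0079 for Jdp2, -0.046 to 0.42 for Nr4a1, -1.11 to 0.017 for Cxcl1, -0.48 to 0.019 for Rel and -0.069 to 0.18 for Gapdh. It turned to 0.048 for Junb with quantile scaling, to -0.10 for Nr4a1, -0.24 for Apoe and -0.063 for Mcm2 with a window of 500 bp, and to -0.0012 for Apoe with centring. Depth was higher in every KO library than in every WT library and limits what can be said of regions near the window floor.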
